A study of Mus musculus with 6 samples.

Results

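The genes described here are the folding and quality-control machinery of the endoplasmic reticulum (ER): lumenal chaperones, disulfide isomerases, the sensors and targets of the unfolded protein response, and genes of ER-associated degradation (ERAD). They were chosen by name, with earlier results of these data known. All 44 listed genes were found among the 24959 genes of the count table. Their mRNA was read by RNA sequencing of 6 mouse libraries labelled dental epithelial cells, the tooth layer whose cells become enamel-secreting ameloblasts, at postnatal day 0. The 3 control libraries carry the genotype label WT, and the 3 cKO libraries the label PKM knockout. Pkm encodes the M-type pyruvate kinases of the last step of glycolysis. No treatment was labelled, both groups were of the same age, and the sources used here do not give the strain, the Cre driver, the deleted exon or any pooling of animals. The labels call the replicates of a group biological without naming their animals, so a p-value here covers the spread among these libraries alone.

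Proteins that will be secreted fold in the ER lumen. BiP (Hspa5) and GRP94 (Hsp90b1) hold unfolded chains, calnexin and calreticulin retain glycoproteins until they are folded, and isomerases form disulfide bonds. When unfolded protein builds up, the sensors IRE1 (Ern1), ATF6 and PERK (Eif2ak3) raise the output of this machinery, and chains that fail to fold are drawn back into the cytosol and degraded by ERAD. Ameloblasts secrete large amounts of enamel matrix protein and depend on this system. Known targets of ATF6 and XBP1 carry the ER stress response element (ERSE) in their promoters, a CCAAT box and a CCACG box set a fixed distance apart.

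The promoters of the genes were searched for this element. The list includes known targets of the unfolded protein response, so a high share of the element is in part built into the choice of genes. RefSeq promoters (GRCm38.p6, 250 bases before to 50 after each annotated start) were found for 38 of the 44 genes, and there were none for Hyou1, Sil1, Erp29, Manf, Atf6 and Derl1. On either strand, the ERSE (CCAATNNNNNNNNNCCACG) was in the promoters of 10 of the 38 genes (26.3%), against 37 of all 27025 genes with a promoter (0.137%). Its second form, ERSE-II (an ATTGG box and a CCACG box with 1 base between them), was in 2 of 38 (5.26%), Dnajb11 and Herpud1, against 0.0444% of all genes. The UPR element TGACGTGG was in 3 of 38 (7.89%) against 0.714%. The ERSE and ERSE-II both contain the shorter CCACG, which alone was in 78.9% of the members and 35.5% of all genes. Among 63 further genes of the pathway with a promoter, described at the end, 0 held the ERSE.

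The 10 members with an ERSE were Hspa5, Hsp90b1, Dnajc3, Calr, Canx, Pdia6, Ero1b, Creld2, Syvn1 and Derl3, which span 5 of the 7 role groups used here. The 250 bases before the start are shown for 6 of them, 1 or 2 from each of these groups, because their levels are given beside them further on. Each is written 5′ to 3′ on the strand of its gene. Capitals mark the fixed letters of the ERSE, which reads CCAAT and CCACG in the direction of the gene or, on the other strand, CGTGG and ATTGG.
Hspa5 (chr2:34771840-34772089, plus strand): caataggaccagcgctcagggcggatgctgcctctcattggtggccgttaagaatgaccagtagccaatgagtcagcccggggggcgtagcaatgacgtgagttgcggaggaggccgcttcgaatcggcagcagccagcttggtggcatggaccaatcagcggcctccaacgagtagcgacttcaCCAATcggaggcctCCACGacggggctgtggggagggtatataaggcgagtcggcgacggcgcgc
Hsp90b1 (chr10:86705445-86705694, minus strand): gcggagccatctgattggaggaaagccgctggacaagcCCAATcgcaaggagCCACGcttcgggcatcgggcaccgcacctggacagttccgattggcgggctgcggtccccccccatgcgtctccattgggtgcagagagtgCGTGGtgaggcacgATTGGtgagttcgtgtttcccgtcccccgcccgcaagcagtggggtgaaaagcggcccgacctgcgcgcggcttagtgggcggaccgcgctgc
Calr (chr8:84846932-84847181, minus strand): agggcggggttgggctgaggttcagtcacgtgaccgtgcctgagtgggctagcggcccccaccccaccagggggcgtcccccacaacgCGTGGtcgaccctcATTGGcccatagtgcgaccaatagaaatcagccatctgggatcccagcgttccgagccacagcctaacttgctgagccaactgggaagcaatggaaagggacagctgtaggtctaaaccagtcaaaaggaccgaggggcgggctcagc
Pdia6 (chr12:17266339-17266588, plus strand): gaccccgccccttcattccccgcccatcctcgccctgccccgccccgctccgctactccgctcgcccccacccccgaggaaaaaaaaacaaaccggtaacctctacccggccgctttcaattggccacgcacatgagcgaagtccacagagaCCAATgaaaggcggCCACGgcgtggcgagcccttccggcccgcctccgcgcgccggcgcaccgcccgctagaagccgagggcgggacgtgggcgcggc
Creld2 (chr15:88819396-88819645, plus strand): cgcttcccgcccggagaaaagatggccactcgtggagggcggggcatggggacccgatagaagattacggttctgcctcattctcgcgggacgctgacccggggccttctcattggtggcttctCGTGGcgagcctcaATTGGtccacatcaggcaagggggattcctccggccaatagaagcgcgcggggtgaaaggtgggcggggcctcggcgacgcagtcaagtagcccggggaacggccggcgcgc
Derl3 (chr10:75893148-75893397, plus strand): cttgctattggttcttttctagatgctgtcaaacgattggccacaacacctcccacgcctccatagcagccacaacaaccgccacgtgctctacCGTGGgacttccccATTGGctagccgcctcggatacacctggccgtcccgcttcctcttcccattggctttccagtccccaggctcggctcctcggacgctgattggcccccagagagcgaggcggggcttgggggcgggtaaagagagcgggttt
In Hspa5 the element lay at positions -65 to -47 from the start, and in Pdia6 at -98 to -80. Hsp90b1 held it in both directions, at -212 to -194 and at -107 to -89. In Creld2, Derl3 and Calr it lay on the other strand, at -126 to -108, -156 to -138 and -162 to -144. These matches describe the letters of the promoter and do not show that a factor was bound.

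The controls had 38130829 to 39415700 counts in total and the cKO libraries 30588350 to 39085792. Pkm itself stood at 1281, 1185 and 1049 CPM (the reads of a gene relative to all reads of its library, scaled between libraries by TMM) across the controls and 309, 395 and 350.5 CPM in the libraries labelled as knockout (it fell by 1.74 on the log2 scale, SE 0.159, edgeR adjusted p 0.0109). The labelled cell type was checked against 10 epithelial markers, which were present in all 6 libraries and summed to 14970 to 17220 CPM in controls and 10890 to 12560 CPM in cKO libraries. The 10 ameloblast genes summed to 10770 to 25380 and 364.9 to 5591 CPM. Other cells were present as well: 12 mesenchymal markers held 1236 to 1329 and 1698 to 4474 CPM, 6 odontoblast genes 20520 to 34110 and 13640 to 40520 CPM, and 9 immune genes 75.5 to 83.3 and 125.5 to 208 CPM. The largest parts of the odontoblast sum were the collagen genes Col1a1 (means 18890 and 17800 CPM) and Col1a2 (6728 and 6108 CPM). Dspp averaged 3342 and 1193 CPM and Dmp1 437 and 213 CPM, and the groups overlapped for all 6 genes. Erythroid genes (6) held 574 to 801 and 267 to 353.5 CPM, endothelial genes (7) 292 to 366 and 296 to 571.5 CPM, and osteoblast genes (6) 1117 to 1213 and 1010 to 1735 CPM. The 8 skeletal muscle genes held 0.932 to 2.12 CPM in controls, and cKO replicates 1 to 3 held 69.1, 14.0 and 2810 CPM. Of 4 plasma cell and 5 salivary acinar markers, from cells with much ER, 3 of each list were in the count table. Their sums stayed under 2 CPM in every library. Igkc, Smgc and Dcpp1 were not in it, so these sums do not show that such cells were absent.

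Summed over the 44 genes, the controls held 16530, 12490 and 14690 CPM and the cKO libraries 9433, 10790 and 8682 CPM. All 3 cKO libraries were below all 3 controls, and the mean was 0.661 times that of the controls. The sum of the epithelial markers moved with it, at 0.721 times the control mean, as did that of the ameloblast genes, at 0.115 times. The share of mitochondrial reads also separated the groups, at 1.09%, 1.39% and 1.64% in controls and 2.02%, 1.79% and 2.45% in cKO replicates 1 to 3, and its part in the result was not tested. Per CPM of epithelial markers the 44 genes stood at 0.960, 0.834 and 0.923 across the controls and 0.841, 0.859 and 0.797 across the cKO libraries, so these ratios overlapped. In bulk samples, fewer cells of a type and less RNA per cell cannot be told apart, and the part of the cell makeup in the values that follow was not tested.

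**Figure D1:**
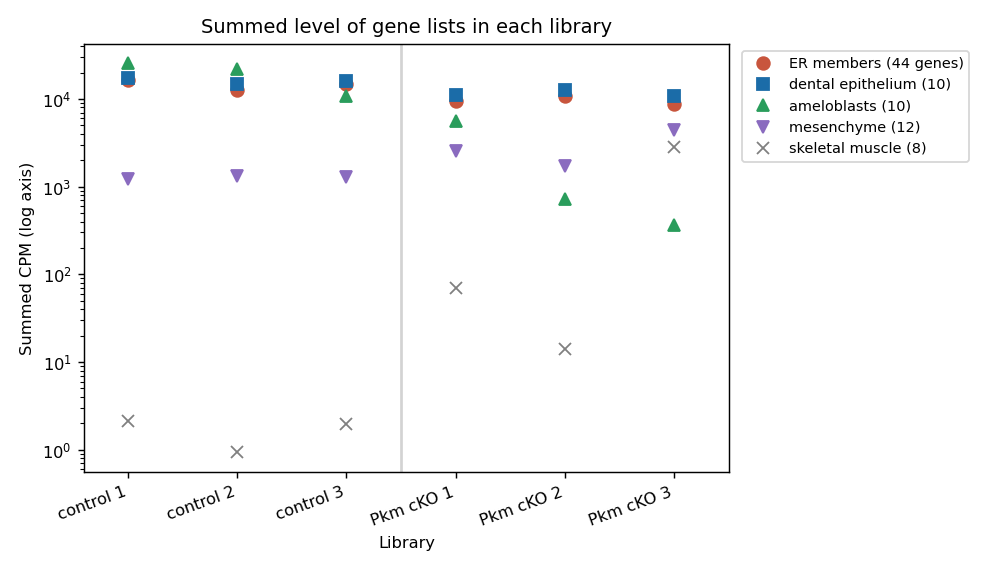
Summed CPM (log axis) of the 44 ER genes and of 4 marker lists in each library. The ER and epithelial sums lie close together in every library and lower in the cKO group (ER genes 8682 to 10790 CPM against 12490 to 16530 CPM), the ameloblast sum is far lower in the cKO group, and muscle genes reach 2810 CPM in Pkm cKO replicate 3.

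Of the 44 genes, 43 had enough reads to be tested, and 2 fell in the cKO libraries, Manf and Pdia3 (edgeR's quasi-likelihood test over 15930 genes, called where the Benjamini-Hochberg value was below 0.05). None was called higher. Over all tested genes 0.552% were called, 0.207% lower and 0.345% higher. At an unadjusted p under 0.05 there were 24 members, all lower, against 7.90% of all genes lower at that level and 9.57% higher. For 26 of the 43 the cKO values all lay under the control values, and for 0 all above, where 12.2% of all tested genes lay apart in that direction and 11.2% in the other. The log2 fold change (cKO minus control) was below 0 for 42 of the 43, against 49.2% of all genes (50.8% were above). Its median was -0.51, against 0.01 over all tested genes. Since the list was chosen with earlier results of these data known, these counts describe it and do not test it. DESeq2 called 14 members, all lower, against 7.02% of all genes, 2.70% lower and 4.32% higher, and limma-voom called 0, with 24 at an unadjusted p under 0.05. Without any 1 control edgeR called 0 members and 0 of all genes, and without cKO replicate 1, 2 or 3 it called 2, 2 and 1 members, against 3.92%, 1.13% and 0.77% of all genes.

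When the libraries were instead scaled to the epithelial marker sum, a choice made after the values were seen, 25 of the 43 lay below 0 (12.3% of all tested genes did) and the median was -0.03, while the median of all tested genes was 0.48. Such a rescaling moves every gene by nearly the same amount, so it leaves the distance to the median gene as it was and changes the direction against 0. With that scaling Manf and Derl3 were called lower and Pdia3 was not (edgeR adjusted p 0.0184, 0.0437 and 0.0648), and the groups lay apart and lower for 4 members and apart and higher for 5, against 1.6% and 43.9% of all tested genes. Directions given from here on are those under TMM, and with the epithelial scaling the members other than these 25 lay above 0.

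Control replicate 1 was the highest of the 6 libraries for 36 of the 43 tested genes, and control replicate 2 was the highest for 0. Pkm cKO replicate 3, the library with the most muscle reads, was the lowest for 24, against 9 and 8 for Pkm cKO replicates 2 and 1. The median log2 ratio of the members to their control mean ran 0.19, -0.18 and -0.01 over control replicates 1 to 3 and -0.47, -0.43 and -0.70 over the cKO replicates. Without Pkm cKO replicate 3 the median log2 fold change was -0.46 and the groups lay apart for 27 of the 43, all lower, against 18.4% of all genes apart and lower and 18% apart and higher in this comparison of 3 with 2 libraries. Without control replicate 1 the median was -0.38 and the groups lay apart for 26, all lower, against 14.2% lower and 13.3% higher. Members at an unadjusted edgeR p under 0.05 then numbered 14, all lower, where 1532 of all 16489 genes were under it in either direction.

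**Figure D2:**
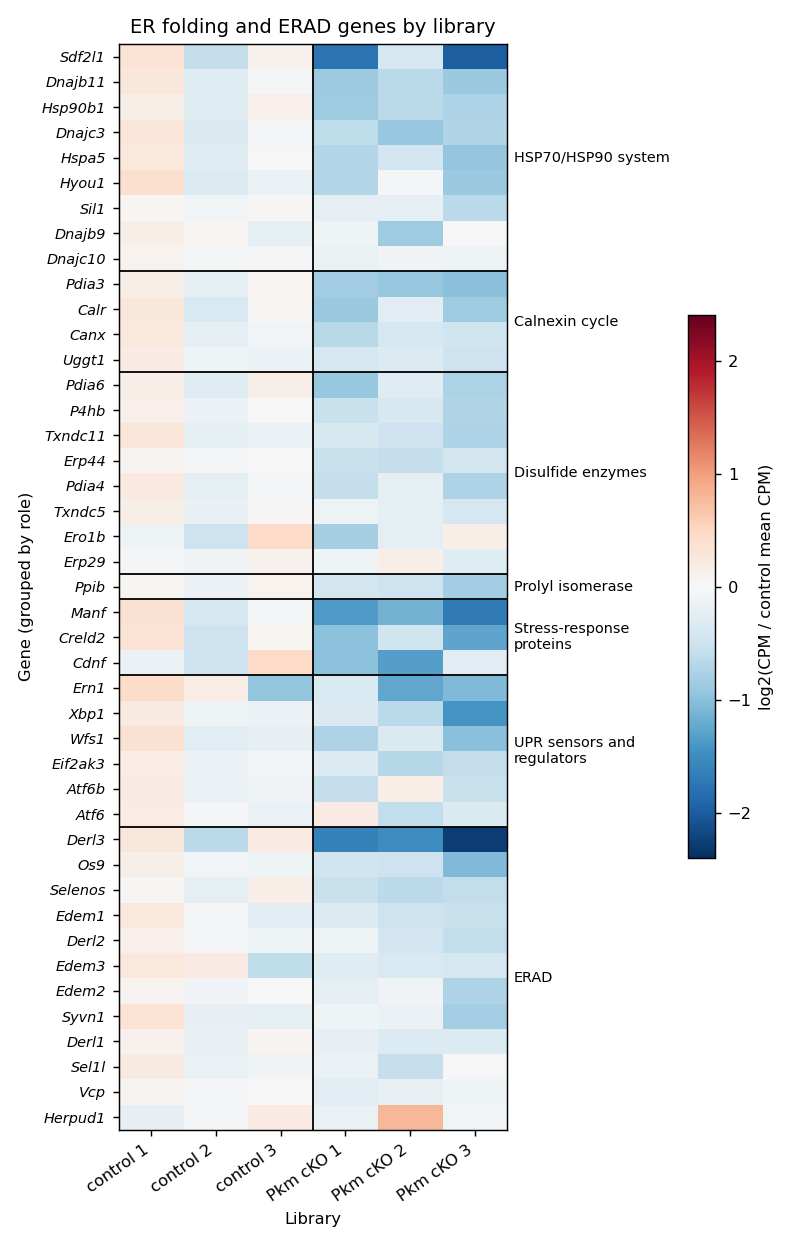
Colour shows the log2 ratio of CPM in each library to the control mean for the 43 tested genes, by role, under the main scaling. The cKO columns are mostly blue, darkest for Derl3, Sdf2l1 and Manf, and the Herpud1 row is red in Pkm cKO replicate 2; scaled to epithelial markers, 25 of the 43 genes are below 0.

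Compared per kilobase of the longest coding transcript in GENCODE M21, calreticulin mRNA was the most abundant in both groups of the 43 genes with a length (Ero1b had none), with mean levels of 833 and 533 CPM per kb. Ppib (729 in controls), P4hb (586), Hsp90b1 (531) and Pdia3 (527) followed, and this order of the first 7, which ended with Pdia6 and Hspa5, was the same in the cKO libraries. Manf ranked 9 in controls and 13 in cKO libraries, and Sdf2l1 17 and 23. Neighbours such as Hsp90b1 and Pdia3 in controls did not differ beyond the spread between libraries.

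Secreted or lumenal stress-response proteins had the lowest median fold change of the groups, with a log2 value of -0.87 over 3 genes. Manf, a small ER protein that is induced by folding stress and can be secreted, stood at 503, 291 and 381 CPM across the controls and 152, 179 and 121 CPM across the cKO libraries. Every cKO value was below every control value. Its level fell by 1.38 on the log2 scale (SE 0.223, edgeR adjusted p 0.0444), to 0.385 times the control mean. The call was lost without any 1 control (edgeR adjusted p 0.258, 0.153 and 0.178 without control replicates 1, 2 and 3), and the log2 fold change over all alternatives ran from -1.56 to -0.90. Within each library Manf stood at 0.365, 0.310 and 0.333 times the CPM of Hspa5 in controls and at 0.214, 0.214 and 0.199 times in cKO libraries, a pair chosen after its values were seen. These ratios do not depend on the scaling between libraries, and the groups did not overlap.

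Creld2, a secreted ER protein with disulfide isomerase-like motifs whose promoter is shown above, stood at 98.95, 55.7 and 81.2 CPM across the controls and 39.5, 56.7 and 32.7 CPM across the cKO libraries. Control replicate 2 and Pkm cKO replicate 2 overlapped. The log2 fold change was -0.87 (SE 0.256, edgeR adjusted p 0.135). Cdnf, the relative of Manf, stood at 0.463, 0.362 and 0.701 CPM across the controls (17, 14 and 27 reads) and 0.258, 0.203 and 0.422 CPM across the cKO libraries (8, 7 and 17 reads), and at these few reads its log2 fold change of -0.77 (SE 0.585) did not pass (edgeR adjusted p 0.534).

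**Figure D3:**
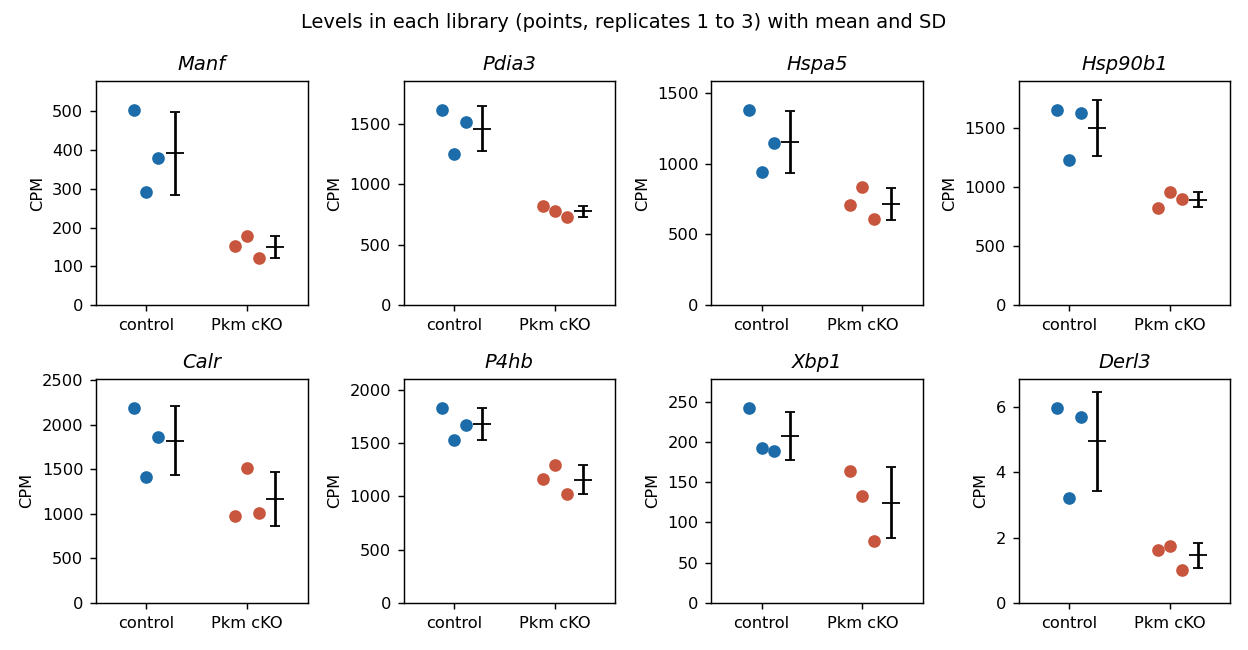
CPM of 8 genes in each library (points, replicates 1 to 3 from left to right) with the mean and SD of each group (n = 3). The groups lie apart for Manf, Pdia3, Hspa5, Hsp90b1, P4hb, Xbp1 and Derl3 and overlap for Calr, where Pkm cKO replicate 2 reached 1510 CPM.

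The lumenal HSP70 and HSP90 chaperones and their partners had a median log2 fold change of -0.69 over 9 genes. All 9 were below 0 and 6 had groups that lay apart, but 0 passed edgeR's threshold, with 5 at an unadjusted p under 0.05. Over all tested genes 12.2% lay apart and lower, 7.90% were lower at that p and 0.552% were called. The counts of this and the later role groups stand beside these shares. With so few genes called anywhere, 0 calls in a small group say little about it. Hsp90b1, the ER form of HSP90, stood at 1648, 1228 and 1621 CPM across the controls and 826, 956 and 896 CPM across the cKO libraries. The groups did not overlap, and 14.7% of its exon bases are shared with 1810014B01Rik on the opposite strand (edgeR adjusted p 0.0736 for a log2 fold change of -0.75, SE 0.162). Hspa5, the central chaperone BiP, stood at 1378, 938 and 1145 CPM against 710.1, 834 and 608 CPM. The lowest control was above the highest cKO library (edgeR adjusted p 0.112 for a log2 fold change of -0.69, SE 0.186).

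Among the J-domain co-chaperones that bring clients to BiP, the 2 with the lowest p were Dnajb11 and Dnajc3. Dnajb11 stood at 256, 173 and 204 CPM across the controls and 116, 135 and 113 CPM across the cKO libraries. Dnajc3, which also inhibits PERK, stood at 155, 99.3 and 124 CPM against 83.0, 67.1 and 76.3 CPM. For both, the groups lay apart, with log2 fold changes of -0.80 (SE 0.174) and -0.74 (SE 0.184) and edgeR adjusted p of 0.0755 and 0.0971. Dnajc10, a J protein with thioredoxin domains that reduces disulfides, averaged 105 ± 5.72 and 96.6 ± 2.12 CPM (SD, n = 3). Its groups lay just apart, and those of Dnajb9, which represses IRE1, overlapped (log2 fold change -0.27, SE 0.249). Sdf2l1, a partner of Dnajb11, averaged 71.3 ± 21.0 and 31.3 ± 20.4 CPM. Its groups overlapped through Pkm cKO replicate 2 at 54.8 CPM, and the main fit did not call it (edgeR adjusted p 0.272 for a shift of -1.19). It was called without that library (log2 fold change -1.86, edgeR adjusted p 0.0304). The library left out was the cKO library closest to the controls, so this call adds no weight to the shift. Among 16 alternatives Sdf2l1 was called in 2, and its adjusted p reached 0.645. The nucleotide exchange factors for BiP, Hyou1 (log2 fold change -0.49, SE 0.258) and Sil1 (-0.36, SE 0.168), did not pass.

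DESeq2 called Hspa5 (adjusted p 0.0261), Hsp90b1 (0.00275), Dnajb11 (0.00405), Dnajc3 (0.0155) and Sdf2l1 (0.0353) of this group. Its other calls were Pdia3 (3.69e-05), P4hb (0.0411), Erp44 (0.0251), Ppib (0.0289), Manf (6.62e-06), Creld2 (0.0313), Derl3 (0.000833), Os9 (0.0374) and Selenos (0.0230), all lower in the cKO libraries.

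In the calnexin and calreticulin cycle, all 4 genes were below 0 (median log2 fold change -0.58) and all 4 had an unadjusted p under 0.05. Pdia3, the disulfide isomerase ERp57 that works with both lectins, stood at 1614, 1253 and 1516 CPM across the controls and 823, 780.4 and 732 CPM across the cKO libraries. The cKO libraries lay close together and far below the lowest control. The level fell by 0.91 on the log2 scale (SE 0.152, edgeR adjusted p 0.0451), to 0.533 times the control mean. The call was lost without control replicate 1, 2 or 3 (edgeR adjusted p 0.258, 0.209 and 0.178) and without Pkm cKO replicate 2 or 3 (0.0602 and 0.0557), and over all alternatives the log2 fold change ran from -1.01 to -0.43.

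Calr, the soluble lectin calreticulin, stood at 2186, 1409 and 1863 CPM across the controls and 979.6, 1510 and 1003 CPM across the cKO libraries. Pkm cKO replicate 2 lay inside the control range (edgeR adjusted p 0.179 for a log2 fold change of -0.64, SE 0.219). Canx, the membrane-bound lectin calnexin, stood at 592, 426 and 475 CPM against 312, 370.1 and 358 CPM, and its groups lay apart (edgeR adjusted p 0.153 for a log2 fold change of -0.52, SE 0.164). Uggt1, the enzyme that marks misfolded glycoproteins for another round, averaged 172 ± 22.8 and 129 ± 7.87 CPM, also without overlap.

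**Figure D4:**
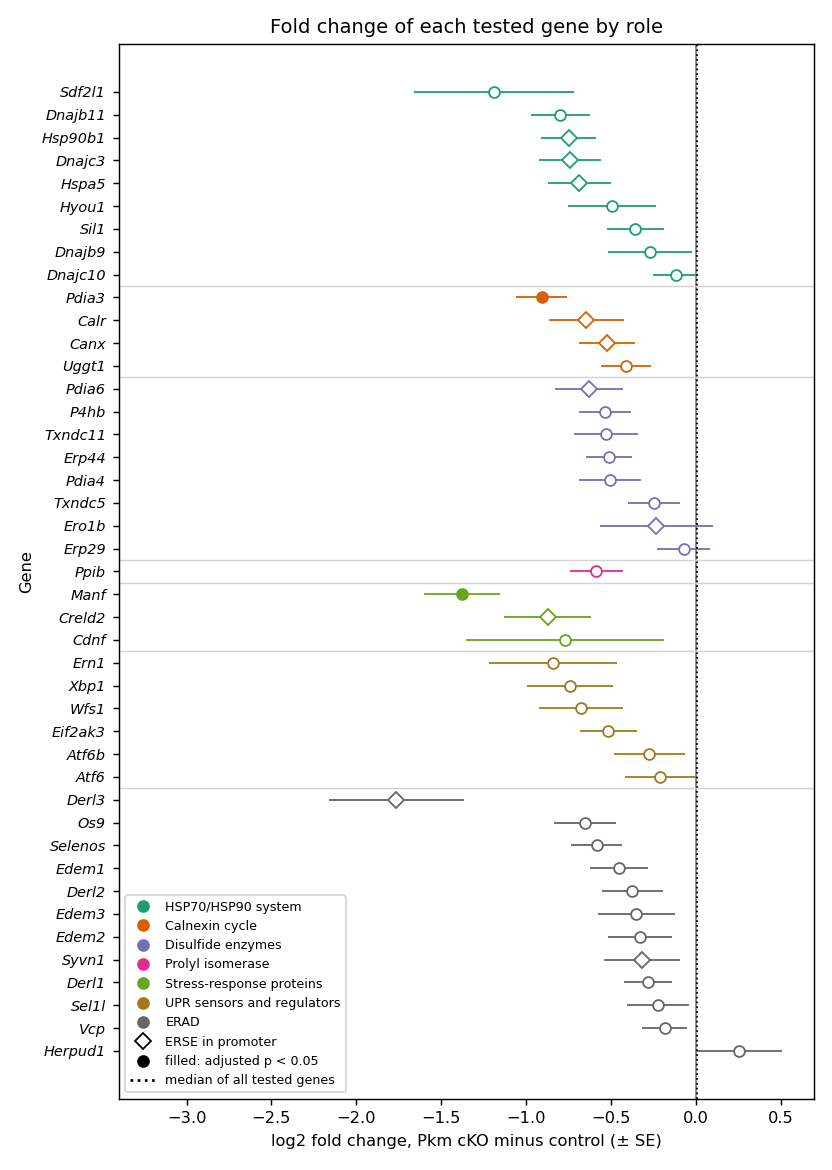
Log2 fold change (cKO minus control, ± SE) of the 43 tested genes by role, with diamonds for promoters that hold the ERSE and filled symbols for an adjusted p under 0.05. Under the main scaling all but Herpud1 lie left of 0, Manf and Pdia3 are filled, and diamonds lie among the other symbols; scaled to epithelial markers, 25 of the 43 are below 0.

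Disulfide isomerases and oxidases were below 0 for all 8 genes (median log2 fold change -0.51), with 5 at an unadjusted p under 0.05 and 0 past edgeR's threshold. P4hb, the archetypal protein disulfide isomerase, stood at 1831, 1531 and 1671 CPM across the controls and 1161, 1291 and 1023 CPM across the cKO libraries, without overlap (edgeR adjusted p 0.126 for a log2 fold change of -0.53, SE 0.153). Erp44, which retrieves unassembled proteins from the early Golgi, had the lowest p of the group. It stood at 113, 105 and 108 CPM against 75.3, 73.4 and 80.2 CPM, with little spread in either group (edgeR adjusted p 0.106 for a log2 fold change of -0.51, SE 0.134).

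Pdia6, an isomerase that also quiets IRE1, stood at 840.1, 616 and 839 CPM across the controls and 409.8, 623 and 452 CPM across the cKO libraries. Its groups overlapped by control replicate 2 and Pkm cKO replicate 2. Pdia4 stood at 464, 337 and 382 CPM against 264, 336 and 234 CPM, where the same 2 libraries nearly met. Txndc5, an isomerase with 3 thioredoxin domains, stood at 460.2, 369 and 429 CPM against 388, 358 and 316 CPM and overlapped. The log2 fold changes of these 3 were -0.63, -0.50 and -0.25. Txndc11, which assists hydrogen peroxide-producing oxidases, averaged 58.8 ± 11.7 and 40.7 ± 5.07 CPM without overlap. Erp29, which lacks the isomerase's catalytic cysteines, averaged 221 ± 14.0 and 210.1 ± 33.0 CPM, and the oxidase Ero1b 8.32 ± 2.80 and 7.08 ± 2.24 CPM. Both overlapped. Of the exon bases of Erp29, 30.5% are shared with Naa25 on the opposite strand, so its level is uncertain where counting did not use strand.

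Of the prolyl isomerases, Ppib (cyclophilin B, which also serves collagen folding) stood at 667, 592 and 691 CPM across the controls and 477, 459 and 365 CPM across the cKO libraries. The groups lay apart (edgeR adjusted p 0.110 for a log2 fold change of -0.58, SE 0.156). Snx22, on the opposite strand, shares 57.6% of its exon bases, and reads of the pair cannot be told apart without strand. Fkbp2 had 0 to 3 reads in a library and was not tested. No gene sharing its exon bases was found in GENCODE M21, and the cause of its few reads was not tested. Its level is uncertain, since the annotation and counting program were not described.

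The sensors and regulators of the unfolded protein response had a median log2 fold change of -0.60 over 6 genes, all below 0, with 0 past edgeR's threshold and 3 at an unadjusted p under 0.05. Xbp1, the transcription factor that IRE1 activates by splicing, stood at 242, 193 and 188 CPM across the controls and 164, 132 and 76.8 CPM across the cKO libraries. The groups lay apart (edgeR adjusted p 0.188 for a log2 fold change of -0.74, SE 0.255). Gene counts do not separate its spliced from its unspliced form. Eif2ak3, the kinase PERK, stood at 68.5, 54.9 and 57.8 CPM against 48.2, 37.8 and 40.9 CPM, also without overlap (edgeR adjusted p 0.161 for a log2 fold change of -0.51, SE 0.167). Wfs1, an ER membrane protein that restrains ATF6, stood at 30.7, 20.01 and 20.6 CPM against 14.2, 18.6 and 11.9 CPM, and its lowest control was just above its highest cKO library (edgeR adjusted p 0.206 for a log2 fold change of -0.68, SE 0.248).

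The IRE1 gene Ern1 overlapped between groups and varied widely within controls, with 40.7 ± 17.7 and 22.7 ± 7.74 CPM. The genes of the ATF6 sensors overlapped between groups. Atf6 averaged 80.9 ± 9.75 and 70.1 ± 20.2 CPM, and Atf6b 162 ± 21.3 and 134 ± 40.0 CPM.

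ERAD genes had the smallest median shift of the groups, -0.34 on the log2 scale over 12 genes. Of these, 11 were below 0 and 8 had groups that lay apart, but 0 passed edgeR's threshold, with 4 at an unadjusted p under 0.05. Derl3, the derlin of highly secretory cells, had the lowest log2 fold change of all 43, -1.76 (SE 0.398, edgeR adjusted p 0.0808). It stood at 5.96, 3.21 and 5.68 CPM in controls (219, 124 and 219 reads) and 1.615, 1.74 and 1.02 CPM in cKO libraries (50, 60 and 41 reads), so the groups lay apart at a low level. Its relatives Derl1 (151 ± 15.5 and 124 ± 6.38 CPM) and Derl2 (39.2 ± 3.22 and 30.2 ± 5.23 CPM) had log2 fold changes of -0.28 and -0.37, and per CPM of Derl1, Derl3 stood at 0.0370, 0.0241 and 0.0358 in controls and 0.0123, 0.0144 and 0.00847 in cKO libraries. The pair was chosen after its values were seen.

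Os9, a lectin that hands misfolded glycoproteins to the SEL1L and HRD1 complex, stood at 551, 479 and 466 CPM across the controls and 358, 354 and 239.6 CPM across the cKO libraries (edgeR adjusted p 0.119 for a log2 fold change of -0.65, SE 0.182). Selenos, a selenoprotein that recruits VCP to the membrane, stood at 93.0, 78.7 and 101 CPM against 62.9, 58.7 and 60.5 CPM (edgeR adjusted p 0.1 for a log2 fold change of -0.58, SE 0.149). Neither gene's groups overlapped. Vcp, the ATPase that extracts substrates and serves many cytosolic tasks, stood at 552, 508 and 519.9 CPM against 441, 463 and 488 CPM, a small shift without overlap (log2 fold change -0.18, SE 0.134).

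The mannosidase-like EDEM genes, which mark glycoproteins for disposal, had log2 fold changes of -0.45 (Edem1), -0.33 (Edem2) and -0.35 (Edem3), and Edem3 overlapped. The scaffold Sel1l and the ubiquitin ligase HRD1 (Syvn1) overlapped between groups, at 134 ± 19.8 and 115 ± 22.2 CPM and at 116 ± 26.9 and 93.4 ± 23.3 CPM. Herpud1, a membrane component that turns over fast and is induced by folding stress, was the 1 member above 0. It averaged 37.7 ± 5.39 and 45.0 ± 17.5 CPM, and Pkm cKO replicate 2 held 65.2 CPM against 32.8 to 43.5 CPM in all other libraries. Without that library its log2 fold change was -0.11.

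Fold changes were set against the promoter element. The 10 members with an ERSE had a median log2 fold change of -0.66 (range -1.76 to -0.23), and the 27 tested members with a promoter without it had a median of -0.51 (-1.19 to 0.25). Groups lay apart and lower for 5 of the 10 and for 18 of the 27, against 12.2% of all tested genes. An unadjusted p under 0.05 was reached by 8 of the 10 and 15 of the 27, all lower, against 7.90% of all tested genes lower at that level. The difference between the 2 sets was not tested. The members without the ERSE include Dnajb11 and Herpud1, which hold ERSE-II, and Herpud1 is the gene at 0.25. The 12 members with either form had a median of -0.66 (-1.76 to 0.25). Of 27 genes outside the set whose promoters hold the ERSE, 10 were tested. Their median was 0.10, 4 were below 0 and edgeR called 0, with Alg12, a mannosyltransferase of N-glycan assembly in the ER, at 20.02 and 11.8 CPM (log2 fold change -0.76), the 1 gene whose groups lay apart and lower. The groups of 2 lay apart and higher, Zfp57 (10.2 and 15.6 CPM, log2 fold change 0.62) and Tdrd9 (0.113 and 0.476 CPM, 2.03). These 3 were named after their values were seen. Over all tested genes 12.2% lay apart and lower, 11.2% apart and higher, 49.2% were below 0 and 0.552% were called. The counts among these 10 genes are near those shares.

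Other genes of the same pathway were taken from 5 lists. Of their 82 genes, 81 were tested and 0 passed edgeR's threshold, against 0.552% of all tested genes. At an unadjusted p under 0.05 there were 21 (16 lower and 5 higher), against 7.90% of all genes lower and 9.57% higher. DESeq2 called 6 (4 lower and 2 higher), a share close to its 7.02% over all genes (2.70% lower and 4.32% higher). By limma-voom 0 were called. The median log2 fold change of the 81 genes was -0.18, and it was 0.31 when libraries were scaled to epithelial markers. The 27 further ER folding enzymes had 20 below 0 and a median of -0.40. Groups lay apart and lower for 13 of them and higher for 1, against 12.2% and 11.2% of all tested genes. In this list Pdia5, an isomerase that activates ATF6, averaged 64.2 ± 6.67 and 31.4 ± 7.82 CPM (edgeR adjusted p 0.0623 for a log2 fold change of -1.03, SE 0.208). Ppic, a cyclophilin, averaged 772 ± 136 and 323 ± 119 CPM (-1.26, SE 0.252, adjusted p 0.0661), and Fkbp9, a prolyl isomerase, 1045 ± 133 and 617 ± 102 CPM (-0.76, SE 0.170, adjusted p 0.0796).

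The 28 further ERAD genes had a median of -0.14, and Dnajb14, a membrane J protein, had the lowest p (32.9 ± 3.59 and 19.3 ± 4.65 CPM). The next were Ubxn4, which tethers VCP (log2 fold change -0.33), and Bag6, a cytosolic chaperone of extracted proteins (0.36). The 12 genes of collagen folding had a median of -0.01. Among them P3h3 stood at 51.7 ± 3.23 and 78.7 ± 9.80 CPM, Crtap at 74.1 ± 5.57 and 93.9 ± 7.20 CPM, both higher in all cKO libraries, and P4ha2 at 420.4 ± 41.5 and 248 ± 110 CPM, lower in all. These are enzymes of proline hydroxylation or their partner. The CREB3 and ATF6 protease list had a median of 0.01 over 7 genes, with Creb3l2, a factor of secretory cells, at -0.70 (SE 0.227), its relative Creb3l1 at 0.40 (SE 0.264) and the ATF6 protease Mbtps1 at -0.18 (SE 0.142).

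The PERK arm had a median of 0.18 over 7 genes and 5 above 0. Trib3, a pseudokinase induced by ATF4 and CHOP, stood at 0.218, 0.621 and 0.337 CPM in controls (8, 24 and 13 reads) and 0.872, 5.32 and 2.11 CPM in cKO libraries (27, 183 and 85 reads). All cKO libraries were above all controls (edgeR adjusted p 0.0997 for a log2 fold change of 2.81, SE 0.706, DESeq2 adjusted p 0.00243), with Pkm cKO replicate 2 the highest. Atf3 averaged 16.3 ± 14.5 and 7.08 ± 2.25 CPM and Ddit3, which encodes CHOP, 16.2 ± 3.41 and 11.97 ± 2.48 CPM. Both factors overlapped between groups.

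**Figure D5:**
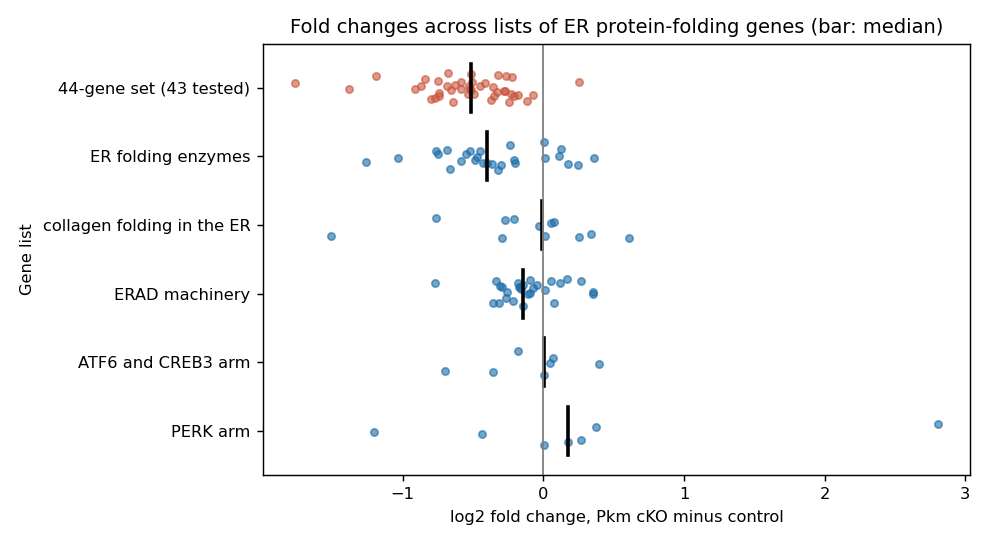
Log2 fold change (cKO minus control) of each tested gene in the 44-gene set and in 5 lists of other genes of the pathway (points, spread vertically for view), with the median as a bar. Under the main scaling the medians run from -0.51 for the 44-gene set and -0.40 for other folding enzymes to 0.18 for the PERK arm; scaled to epithelial markers, the median of the set is -0.03.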

How the data were processed

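RNA of 6 libraries was sequenced, 3 per group. The values are raw counts of reads per gene, deposited as 1 table. The submitters' processing notes name fastp, HISAT2 and build mm39, and the sources used here give no versions, annotation, counting program or strand setting. All per-sample columns were used.

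Genes were kept by edgeR's filterByExpr, scaled by TMM and compared by edgeR's quasi-likelihood test with robust estimation (edgeR 4.0.16, R 4.3.3), two-sided, adjusted by Benjamini-Hochberg over all 15930 tested genes, threshold 0.05. SE is the log2 fold change over the square root of F, and CPM uses scaled library sizes. The common biological coefficient of variation was 0.300. DESeq2 1.42.0 and limma-voom (limma 3.58.1) were alternatives. Members, lists and tests were chosen with earlier results of these data known. All 44 members are named. Values of every library are given for called members, for the 12 most abundant and for the 3 with the lowest p in each role group. Up to 3 genes with the lowest p are named from each other list. Transcript lengths and exon overlaps came from GENCODE M21 (GRCm38), matched by symbol, and promoters from RefSeq. The fit was tested on simulated counts, and the outcome is not reported here.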

Additional observations from a re-analysis of the deposited data

How the results depend on the processing

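The count of 2 members called was 8 with no filter beyond 1 read, 14 with DESeq2, and 0 with limma-voom or edgeR without robust estimation (24 and 25 members at an unadjusted p under 0.05). Leaving out 1 library gave 0 to 2 members, 0 without any 1 control and 1 without Pkm cKO replicate 3. Over all genes the 88 calls became 55 with DESeq2 size factors, 518 with no filter beyond 1 read, 1118 with DESeq2, 2 with limma-voom, 2 without robust estimation, 48 with enamel, mitochondrial, hemoglobin and collagen genes removed, and 0 to 640 with 1 library left out. The 0 other pathway genes called became 4 with no filter beyond 1 read, 6 with DESeq2 and 0 to 5 with 1 library left out. The cause of these differences was not tested. With the replicate block, 6 members, 8 other pathway genes and 708 of all genes were called. Same-numbered libraries deviated together at r = 0.235, 0.0150 and 0.215, and not every library correlated best with its own number, so the numbers were not taken to pair the samples. Scaling to the dental epithelium marker sum, added after seeing the data, gave 3298 calls over all genes and 16 among other pathway genes. The median of the members was then -0.0326, and 9 had groups that did not overlap, 4 lower and 5 higher, against 1.6% and 43.9% of all genes. Apart from that scaling, the median of the members stayed below 0, between -0.61 and -0.38, and the number of members with groups apart was 21 to 32, all lower, against 9.11% to 19.9% of all genes apart and lower. Of the tested values of single members under all alternatives, 650 kept their side of the threshold (values below it that changed sign included), 24 passed it newly and 13 no longer passed. Few reads limit the precision for Cdnf.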
